A study of Mus musculus with 24 samples.

Results

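The collagen genes of mouse cortical astrocytes are described here: every measured gene whose symbol has the form Col, a type number, the letter a and a chain number, with a mean of at least 0.5 CPM (counts scaled to the size of each library) over 24 libraries. Of 32719 genes in the count tables, 44 carried such a symbol and 35 met the level. By type, 10 of the 11 fibrillar genes, 7 of the 8 basement membrane genes and 18 of the 25 genes of other types were members. Col6a5 at 0.509 CPM and Col6a4 at 0.663 CPM lay just inside the limit, and Col9a1 at 0.413 CPM and Col10a1 at 0.338 CPM just outside it. The other genes left out were Col24a1, Col15a1, Col28a1, Col19a1, Col6a6, Col13a1 and Col25a1. All 35 members passed the filter on low counts and were tested.

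Most collagens are secreted proteins. Their chains wind into a rope-like helix, and each type is built from its own set of chains. Fibrillar types such as I, III and V line up into fibrils, type IV forms the sheet of basement membranes, and other types sit on fibrils, form beaded filaments or span the cell membrane. In the brain collagen is scarce outside the meninges and the vessels, where astrocyte endfeet rest on a basement membrane. Chains are hydroxylated, glycosylated and folded in the endoplasmic reticulum before they leave it. Fibrillar procollagens are then trimmed at their ends, and fibrils and type IV collagen are cross-linked.

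Cultures came from the cortices of newborn mouse pups with floxed alleles of the insulin receptor gene, and all 6 groups share those alleles, an adenovirus infection and overnight serum starvation. Floxed control cells were infected with a virus for GFP alone, and IRKO cells with a virus for a Cre:GFP fusion, so that loss of the receptor and exposure to Cre cannot be told apart. Cells of either genotype then received vehicle, insulin at 100 nM or IGF-1 at 100 nM, for 6 h, and 4 libraries were made per group. All 24 libraries are recorded at culture day 14 and 5 days after infection. The labels do not say whether libraries came from separate cultures or pups, so p-values measure the spread between libraries, which may be technical.

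Libraries held 15429688 to 19010986 gene counts, and 15599 genes were tested. Insr, the receptor gene, stood at 58.8 to 66.9 CPM in the floxed vehicle libraries and at 37.7 to 43.7 CPM in the IRKO vehicle libraries, a log2 difference of -0.61 (SE 0.055, adjusted p = 3e-10). Receptor mRNA was therefore lower but present in IRKO libraries, and counts are per gene and do not separate the deleted part. Of the 10 astrocyte markers listed, Gfap and Aqp4 were high, with group means of 650 to 725 and 1004 to 1283 CPM. S100b, on the same list, stood at only 2.49 to 3.35 CPM. Of the fibroblast and meningeal list, collagen-rich cells that brain cultures can hold, 4 of 13 genes stayed under 0.5 CPM on average. As group means, Dpt stood at 0 to 0.0664 CPM, Dcn at 1.29 to 2.67 and Lum at 0.73 to 3.52, while Twist1 stood at 8.96 to 15.4, Ptgds at 11.9 to 16.8, Foxc1 at 12.01 to 17.7 and Pdgfra, which glial progenitors also express, at 39.2 to 47.6 CPM. Of 8 endothelial markers, 6 stayed under 0.5 CPM on average, with Cldn5 at 0 to 0.0145 CPM, while Kdr stood at 2.61 to 3.8 and Flt1 at 2.996 to 5.27 CPM. RNA was taken from whole cultures, and fewer cells of a type and less RNA per cell cannot be told apart.

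Basement membrane chains and type V chains led the collagen mRNAs. Levels were compared between genes as CPM per kb of exon, using all annotated exons of a gene. Col4a1, which with Col4a2 makes the common type IV molecule, led at 46.7 ± 4.18 CPM per kb (SD, n = 24), followed by the type IV chain Col4a5 at 33.98, the type V chain Col5a2 at 31.1, Col18a1, the basement membrane collagen that releases endostatin, at 25.7, and the type IV chain Col4a6 at 20.2. Col5a1 stood at 18.4, Col8a1, a short chain of sheet-like networks, at 16.7, Col4a2 at 15.02, Col12a1, which decorates fibrils, at 13.3, and Col6a1, of beaded filaments, at 12.4 CPM per kb. These 10 genes were the only members above 10 CPM per kb. Type I collagen, the main fibril former of skin and bone, came next, with Col1a2 at 7.53 and Col1a1 at 5.92 CPM per kb. Col3a1, the type III chain of vessel walls and reticular fibres, was far lower at 0.577 CPM per kb.

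Between 1 and 5 CPM per kb lay Col22a1 (4.6), Col23a1 (4.43), Col5a3 (3.04), Col11a1 (2.96), Col16a1 (1.29), Col6a2 (1.24) and Col9a3 (1.18). The other 16 members, from Col27a1 at 0.993 down to Col6a5 at 0.0541 CPM per kb, were lower, and their single libraries held as few as 2 counts. Summed per kb, the 7 basement membrane genes made up 52.4% ± 0.76 (SD, n = 24 libraries) of the collagen level, the 10 fibrillar genes 26.2% ± 0.664 and the 18 others 21.4% ± 0.551. Gene length matters here: over the longest coding transcript in place of all exons, Col1a2 stood at 17.5 and Col3a1 at 1.02 CPM per kb. The order of the members changed, with Col4a1 first and Col6a5 last in both. The class shares were computed over all exons only. They depend on that choice of length, which their SD does not cover.

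**Figure D1:**
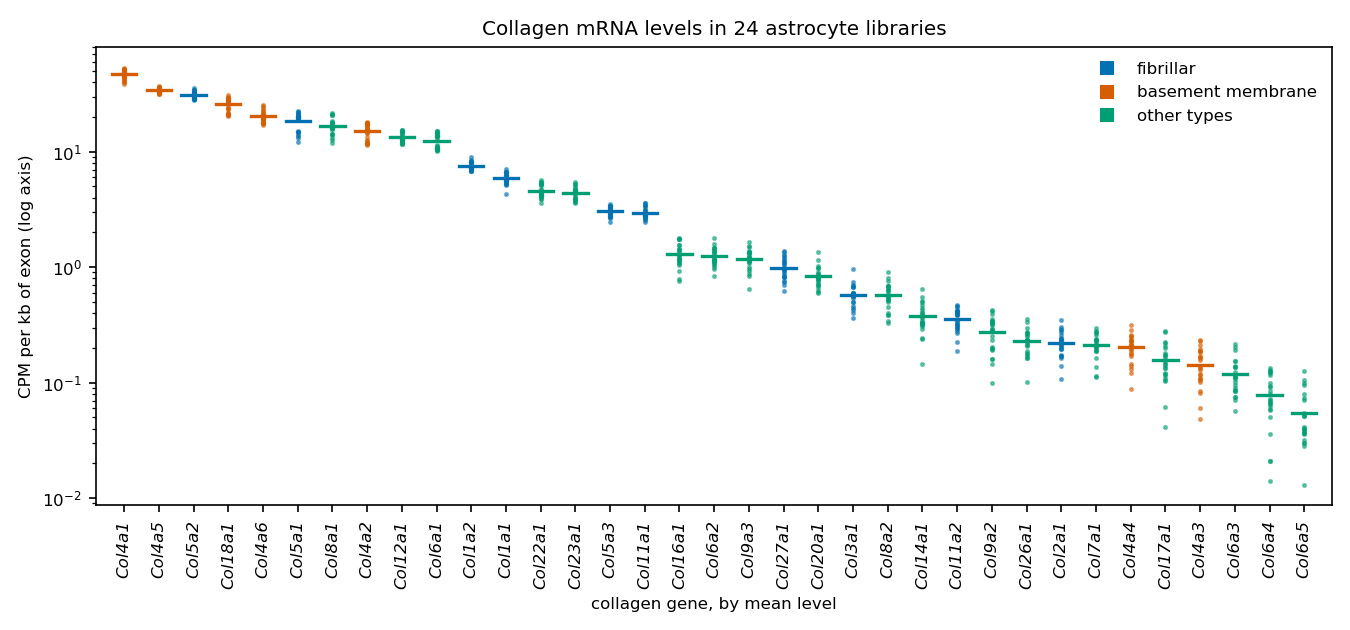
Level of each collagen gene in CPM per kb of exon on a log axis, members ordered by their mean; points are the 24 libraries, the bar is their mean and the colour is the collagen class. Basement membrane genes hold 4 of the 5 highest places, and Col4a3 and Col4a4 lie near the bottom.

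Type IV genes lie in head-to-head pairs that share a start region, which the sequence shows for the pair that leads the levels. Col4a1 (chromosome 8, 11198423 to 11312826, minus strand) and Col4a2 (chromosome 8, 11312805 to 11449287, plus strand; GRCm38, GENCODE M21) are read outward from starts 21 bases apart, so that their first exons share 22 bases. The shared stretch is printed below in capitals with its flanks, on the plus strand at chr8:11312801-11312830 (RefSeq starts, GRCm38.p6).
Col4a1 and Col4a2 shared start: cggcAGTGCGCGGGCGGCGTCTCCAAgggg
Col4a3 and Col4a4 on chromosome 1 have starts 72 bases apart, and Col4a5 and Col4a6 on chromosome X have starts 1309 bases apart. The libraries carry no strand information, but the shared 22 bases are 0.3% of the exon length of each gene, so Col4a1 and Col4a2 can be counted separately.

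Insulin and IGF-1 moved the collagen genes in both directions. A gene was called at an adjusted p under 0.05 (quasi-likelihood test of edgeR, adjusted by Benjamini and Hochberg's method over all 15599 genes). In floxed cells, insulin raised 7 and lowered 7 of the 35 members, a share of 40% against 45.7% of all genes tested. IGF-1 there raised 6 and lowered 9 members, 42.9% against 50.8% of all genes. In IRKO cells, insulin raised 9 and lowered 5 members (40% against 46.4%), and IGF-1 raised 11 and lowered 7 (51.4% against 52%). In none of the 4 was the share of members called above the share of all genes, and the median log2 change of the members was -0.0369, -0.123, 0.0197 and 0.015 in this order, against medians within 0.01 of 0 for all genes. Both ligands are compared with the same vehicle libraries of their genotype, so the comparisons are not independent.

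The members that rose in all 4 comparisons numbered 6 of 35 (17.1%, beside 17.9% of all genes tested): Col4a1, Col4a2, Col18a1, Col5a1, Col8a1 and Col12a1. Another 4 (11.4%, beside 15.1% of all genes tested) fell in all 4: Col5a2, Col11a1, Col4a6 and Col22a1. Both shares lay near those of all genes. Members that rose in 1 to 3 comparisons numbered 5 (Col1a1, Col6a2, Col6a3, Col16a1 and Col23a1), and 9 fell in 1 to 3 (Col1a2, Col2a1, Col5a3, Col4a3, Col4a4, Col6a4, Col9a2, Col9a3 and Col20a1). No member rose in some and fell in others, and 11 passed in none: Col4a5, Col6a1, Col27a1 and 8 scarce genes. The share of all genes with each of these partial patterns was not counted, so whether these numbers are unusual was not tested. Most calls fell on the 18 members with at least 10 CPM, of which 66.7% passed with insulin and 61.1% with IGF-1 in floxed cells, and 61.1% and 77.8% in IRKO cells. Of all genes at that level, 57.7%, 63.1%, 58.2% and 63.5% passed in the same order.

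**Figure D2:**
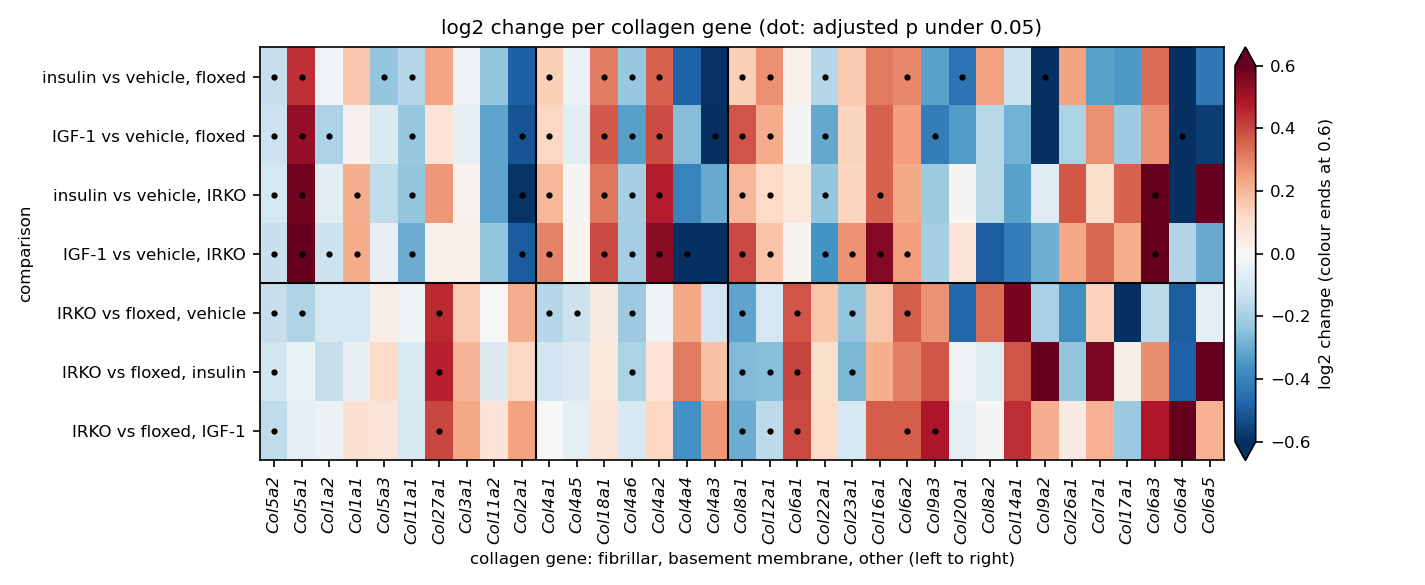
log2 change of each collagen gene (columns, grouped by class) in the 4 comparisons of a ligand with vehicle and the 3 of IRKO with floxed control (rows); red is higher, blue lower, and a dot marks an adjusted p under 0.05. Col5a1, Col18a1, Col4a2 and Col8a1 are red with a dot in all 4 ligand rows, and Col6a1 and Col27a1 in all 3 genotype rows.

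Among fibrillar genes, the type V chains moved apart. Col5a1 (chromosome 2, 27886425 to 28039514, plus strand), whose chain starts and limits fibrils, rose in every ligand comparison, and Col5a2 (chromosome 1, 45374321 to 45503282, minus strand), its partner, fell in every one. Col5a1 stood at 127, 129, 126 and 126 CPM under vehicle, 178, 171, 167 and 172 with insulin and 186, 189.6, 167 and 187 with IGF-1 in the floxed libraries. In IRKO libraries Col5a1 stood at 103, 118, 115 and 112 CPM, 166, 171, 163 and 169 and 180.2, 172, 178 and 169.6 in the same order. All 8 ligand-treated libraries of each genotype lay above all 4 of its vehicle libraries. Its log2 change was 0.44 (SE 0.041, adjusted p = 6.3e-12) with insulin and 0.53 (SE 0.041, adjusted p = 2.4e-14) with IGF-1 in floxed cells, and 0.58 and 0.65 in IRKO cells. Col5a2 stood at 330.5, 328, 342 and 325 CPM under vehicle, 297, 308, 308 and 290.0 with insulin and 288, 309, 301 and 319 with IGF-1 in the floxed libraries. In IRKO libraries Col5a2 stood at 291, 299, 309.8 and 303 CPM, 281, 285, 274 and 276 and 279, 275, 273 and 268 in the same order. Treated and vehicle libraries did not overlap in either genotype, but the shift was small: -0.14 (SE 0.035, adjusted p = 0.00103) and -0.12 (SE 0.035, adjusted p = 0.00309) in floxed cells, -0.11 and -0.13 in IRKO cells. Col5a3 stood at 19.4, 22.9, 23.2 and 21.1 CPM under vehicle, 19.9, 18.9, 18.4 and 16.7 with insulin and 19.9, 19.6, 18.97 and 23.1 with IGF-1 in the floxed libraries. In IRKO libraries Col5a3 stood at 20.1, 22.3, 24.2 and 22.2 CPM, 22.8, 20.3, 18.3 and 18.5 and 21.5, 21.2, 22.3 and 20.9 in the same order. Col5a3, the third type V chain, passed only in the insulin comparison of floxed cells, at -0.23 (SE 0.080, adjusted p = 0.0168), and not without floxed vehicle 3 or floxed insulin 4 (adjusted p = 0.0589 to 0.0643).

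The type I chains changed little and not together. Col1a1 stood at 43.6, 36.3, 34.9 and 34.6 CPM under vehicle, 39.3, 46.8, 43.5 and 37.6 with insulin and 43.4, 36.6, 34.4 and 38.3 with IGF-1 in the floxed libraries. In IRKO libraries Col1a1 stood at 28.1, 33.9, 41.1 and 36.04 CPM, 40.8, 40.5, 41.4 and 39.3 and 39.4, 43.5, 37.3 and 42.6 in the same order. Col1a1 (chromosome 11, 94936224 to 94953042, plus strand) rose in IRKO cells with both ligands, by 0.22 (adjusted p = 0.0275) and 0.22 (adjusted p = 0.0214), and its libraries overlapped. The rise with insulin did not pass without IRKO vehicle 1 or 2 or IRKO insulin 1, 2 or 3 (adjusted p = 0.0503 to 0.247), nor with DESeq2 (adjusted p = 0.0505), and that with IGF-1 did not pass without IRKO vehicle 1 or 2 or IRKO IGF-1 2 or 4 (adjusted p = 0.0511 to 0.191). Col1a2 stood at 112, 92.1, 104 and 96.1 CPM under vehicle, 101, 103, 102 and 94.2 with insulin and 88.9, 91.95, 89.1 and 83.9 with IGF-1 in the floxed libraries. In IRKO libraries Col1a2 stood at 87.96, 100.3, 98.5 and 91.8 CPM, 91.4, 91.6, 92.9 and 86.9 and 88.05, 88.2, 84.8 and 84.8 in the same order. Col1a2 (chromosome 6, 4504814 to 4541544, plus strand) fell with IGF-1, by a log2 change of -0.19 (SE 0.048, adjusted p = 0.00097) in floxed and -0.13 (SE 0.049, adjusted p = 0.0224) in IRKO cells, where the call was lost without IRKO vehicle 2 or 3 (adjusted p = 0.0694 to 0.0926). Insulin left Col1a2 at -0.02 and -0.06, neither of which passed.

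Col3a1 did not pass in any comparison. Col3a1 stood at 5.51, 5.69, 6.69 and 3.6 CPM under vehicle, 3.94, 6.85, 4.52 and 5.73 with insulin and 5.85, 5.84, 4.21 and 4.92 with IGF-1 in the floxed libraries. In IRKO libraries Col3a1 stood at 5.31, 4.37, 9.38 and 4.87 CPM, 7.25, 5.52, 5.89 and 5.55 and 6.6, 6.61, 5.51 and 5.74 in the same order. Its 6 groups overlapped throughout, and its log2 changes with the ligands lay between -0.05 and 0.03.

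Cartilage-type fibrillar genes Col11a1 and Col2a1 fell. Col11a1 stood at 43.2, 45.5, 37.5 and 42.7 CPM under vehicle, 40.4, 34.8, 39.1 and 35.8 with insulin and 35.2, 36.7, 36.6 and 35.7 with IGF-1 in the floxed libraries. In IRKO libraries Col11a1 stood at 39.4, 45.7, 36.7 and 44.1 CPM, 37.96, 35.3, 31.3 and 36.2 and 35.3, 33.4, 33.9 and 32.4 in the same order. Col11a1, a chain of type XI collagen found inside cartilage fibrils, changed by -0.17 (SE 0.067, adjusted p = 0.0348) and -0.23 (SE 0.067, adjusted p = 0.00429) in floxed cells and by -0.24 and -0.30 in IRKO cells. With insulin in floxed cells its call was lost without floxed vehicle 1, 2 or 4 or floxed insulin 2 or 4 (adjusted p = 0.0526 to 0.108). Col2a1 stood at 2.64, 2.56, 2.12 and 2.23 CPM under vehicle, 1.51, 2.16, 0.99 and 2.08 with insulin and 1.28, 1.59, 1.85 and 1.92 with IGF-1 in the floxed libraries. In IRKO libraries Col2a1 stood at 2.79, 2.7, 2.4 and 3.21 CPM, 1.56, 1.61, 1.96 and 2.25 and 2.01, 1.81, 1.81 and 2.22 in the same order. Col2a1, the main cartilage collagen, fell in 3 of the 4 comparisons, with log2 changes of -0.52, -0.59 and -0.50, and stood at -0.49 in the fourth (adjusted p = 0.0658). At a mean of 2.05 CPM, these calls were easily lost: with IGF-1 in floxed cells without floxed vehicle 1, 2 or 4, floxed IGF-1 1 or 2, IRKO vehicle 2, IRKO insulin 3 or IRKO IGF-1 1 (adjusted p = 0.0502 to 0.134), with insulin in IRKO cells without IRKO vehicle 4 or IRKO insulin 1 or 2 (adjusted p = 0.0571 to 0.0685), and with IGF-1 in IRKO cells without IRKO vehicle 1, 2 or 4 or IRKO IGF-1 1, 2 or 3 (adjusted p = 0.062 to 0.116). DESeq2 did not call Col2a1 in either IGF-1 comparison (adjusted p = 0.0564 and 0.0549). Col11a2, at 1.29 to 3.24 CPM over all libraries, and Col27a1 did not pass with either ligand.

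Col4a1, Col4a2 and Col18a1 rose in all 4 ligand comparisons. Col4a2 stood at 75.03, 88.99, 81.97 and 78.8 CPM under vehicle, 116, 104, 95.8 and 98.98 with insulin and 117, 107, 95.5 and 106 with IGF-1 in the floxed libraries. In IRKO libraries Col4a2 stood at 78.8, 82.7, 79.4 and 76.6 CPM, 113, 116, 101 and 109.8 and 114, 112, 120.3 and 116 in the same order. Col4a2 rose by 0.36 (SE 0.056, adjusted p = 1.2e-06) and 0.39 (SE 0.056, adjusted p = 1.4e-07) on the log2 scale in floxed cells and by 0.47 and 0.54 in IRKO cells, with no overlap between treated and vehicle libraries. Col4a1 stood at 326, 328, 349.5 and 346 CPM under vehicle, 383, 382, 362 and 364 with insulin and 367, 388, 331 and 385 with IGF-1 in the floxed libraries. In IRKO libraries Col4a1 stood at 288, 298, 310.4 and 301 CPM, 356, 376, 309.5 and 335 and 397, 359, 364 and 352 in the same order. Col4a1, which shares its start region with Col4a2, rose less: 0.14 (SE 0.048, adjusted p = 0.0124), 0.12 (SE 0.048, adjusted p = 0.0275), 0.20 (SE 0.048, adjusted p = 0.00064) and 0.30 (SE 0.048, adjusted p = 1.5e-06) in the same order. In floxed cells these calls hung on single libraries: with insulin the call was lost without floxed vehicle 1 or 2 or floxed insulin 1 or 2 (adjusted p = 0.0538 to 0.0824), and with IGF-1 without floxed vehicle 1 or 2, floxed insulin 1, floxed IGF-1 1, 2 or 4 or IRKO IGF-1 2 (adjusted p = 0.0654 to 0.143). The IGF-1 call in floxed cells was also lost in 1 alternative fit of all libraries or of the compared groups. Col18a1 stood at 149, 147, 151 and 152 CPM under vehicle, 204, 198, 165 and 174 with insulin and 189, 194, 186 and 205 with IGF-1 in the floxed libraries. In IRKO libraries Col18a1 stood at 144, 147, 166 and 164 CPM, 204, 202, 183 and 184 and 217, 198, 207 and 195 in the same order. Col18a1 (chromosome 10, 77052178 to 77166548, minus strand) rose by 0.31 (SE 0.053, adjusted p = 5.7e-06) and 0.37 (SE 0.053, adjusted p = 1.3e-07) in floxed cells and by 0.32 and 0.39 in IRKO cells, and no treated library reached down to a vehicle library of its genotype.

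Of the other type IV chains, Col4a6 fell in all 4 comparisons, Col4a3 and Col4a4 in 1 each, and Col4a5 passed in none. Col4a6 stood at 203, 191, 183 and 197 CPM under vehicle, 178, 165, 165 and 154 with insulin and 159, 160.2, 156 and 142 with IGF-1 in the floxed libraries. In IRKO libraries Col4a6 stood at 153, 170.5, 172 and 169.6 CPM, 142, 153, 136 and 148 and 152, 141, 143 and 142 in the same order. Col4a6 (chromosome X, 141165403 to 141474076, minus strand), which pairs with Col4a5 in the basement membranes of smooth muscle, changed by -0.23 (SE 0.046, adjusted p = 7.4e-05), -0.33 (SE 0.046, adjusted p = 1.2e-07), -0.20 (SE 0.047, adjusted p = 0.00045) and -0.20 (SE 0.047, adjusted p = 0.00032); only the insulin and vehicle libraries of IRKO cells overlapped. Col4a5, the second most abundant member per kb, did not pass with either ligand, with log2 changes of -0.06 to 0.01 around group means of 220.2 to 241 CPM. Col4a3 and Col4a4, the chains of the kidney filter, were scarce. Col4a3 stood at 2.12, 1.28, 2.34 and 1.94 CPM under vehicle, 1.88, 0.841, 1.05 and 1.35 with insulin and 0.488, 1.7, 1.01 and 0.6 with IGF-1 in the floxed libraries. In IRKO libraries Col4a3 stood at 1.37, 2.29, 1.65 and 1.83 CPM, 1.88, 1.18, 1.07 and 1.62 and 0.804, 1.56, 1.09 and 1.17 in the same order. Col4a4 stood at 2.07, 2.69, 2.65 and 2.46 CPM under vehicle, 2.24, 1.38, 1.49 and 1.91 with insulin and 1.52, 2.5, 2.02 and 2.16 with IGF-1 in the floxed libraries. In IRKO libraries Col4a4 stood at 3.01, 2.75, 2.4 and 3.38 CPM, 2.2, 2.48, 2.26 and 1.79 and 1.89, 0.935, 2.24 and 1.29 in the same order. Col4a3 fell with IGF-1 in floxed cells, by a log2 change of -1.01 (SE 0.315, adjusted p = 0.00603), and Col4a4 with IGF-1 in IRKO cells at a log2 difference of -0.85 (SE 0.229, adjusted p = 0.00162). Libraries of the compared groups overlapped for Col4a3 and not for Col4a4.

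**Figure D3:**
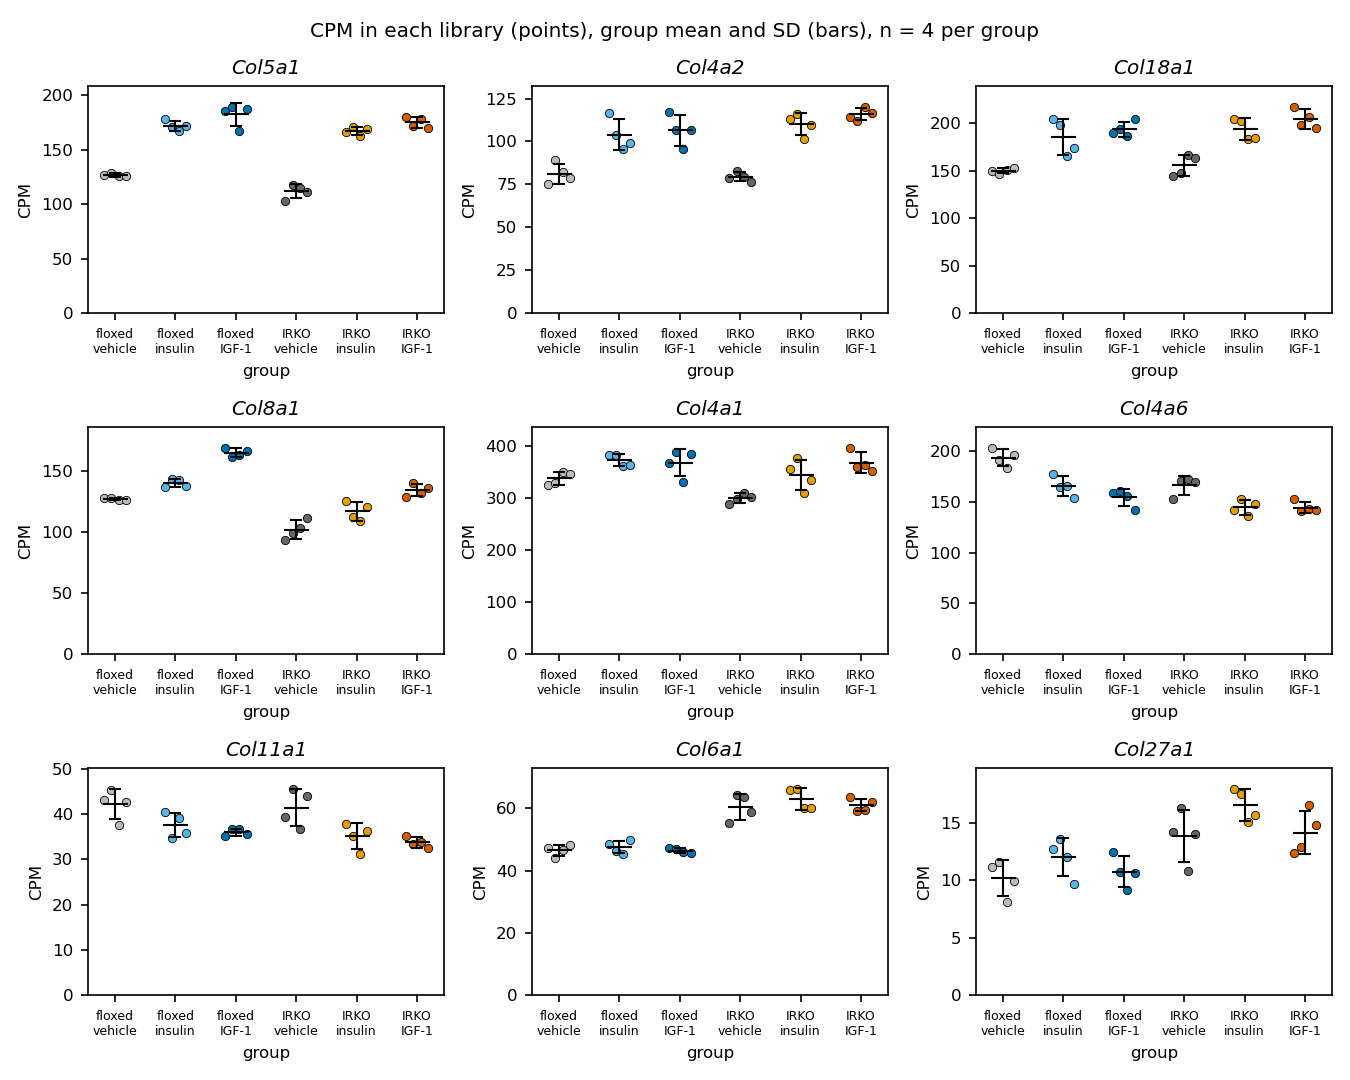
CPM of 9 collagen genes in each library (points), with the group mean and SD (bars, n = 4), for vehicle, insulin and IGF-1 in floxed control and IRKO cells. Col5a1, Col4a2 and Col18a1 are higher in all treated libraries than in the vehicle libraries of the same genotype, Col4a6 and Col11a1 have lower means with both ligands, and Col6a1 is higher in all 12 IRKO libraries than in all 12 floxed ones.

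Collagens that bind fibrils went both ways. Col12a1 stood at 188, 196, 191 and 190.2 CPM under vehicle, 227, 228, 236 and 234 with insulin and 226, 225, 213 and 229.7 with IGF-1 in the floxed libraries. In IRKO libraries Col12a1 stood at 177, 176, 181 and 179 CPM, 196, 202, 182 and 195 and 200.1, 210.3, 199.8 and 192 in the same order. Col12a1 (chromosome 9, 79598991 to 79718831, minus strand) rose by 0.27 (SE 0.036, adjusted p = 3.5e-08) and 0.22 (SE 0.036, adjusted p = 1.5e-06) in floxed cells and by 0.12 (SE 0.036, adjusted p = 0.00583) and 0.17 (SE 0.036, adjusted p = 0.00012) in IRKO cells, without overlap. Col22a1 stood at 47.5, 46.9, 43.4 and 42.1 CPM under vehicle, 48.03, 38.9, 37.3 and 35.7 with insulin and 38.7, 32.8, 38.1 and 35.9 with IGF-1 in the floxed libraries. In IRKO libraries Col22a1 stood at 50.4, 52.3, 49.3 and 49.9 CPM, 49.5, 42.9, 39.1 and 40.3 and 39.7, 39.04, 40.2 and 38.4 in the same order. Col22a1, known from tissue junctions such as that of muscle and tendon, fell with log2 changes of -0.17, -0.31, -0.23 and -0.36, and the IGF-1 libraries did not overlap with vehicle in either genotype. The insulin call in floxed cells was lost without floxed vehicle 1 or 2 or floxed insulin 2, 3 or 4 (adjusted p = 0.0783 to 0.165). Col16a1 stood at 8.15, 8.7, 5.31 and 5.14 CPM under vehicle, 9.27, 9.67, 8.54 and 6.23 with insulin and 9.69, 7.37, 8.42 and 9.23 with IGF-1 in the floxed libraries. In IRKO libraries Col16a1 stood at 7.67, 7.8, 7.09 and 7.92 CPM, 11.8, 11.8, 7.38 and 7.92 and 10.5, 10.4, 12.04 and 11.7 in the same order. Col16a1 rose in IRKO cells, by 0.35 with insulin (adjusted p = 0.0468) and 0.55 with IGF-1 (adjusted p = 0.00153). Its insulin call lay at the threshold and was lost without floxed insulin 1 or 3, floxed IGF-1 3 or 4, IRKO vehicle 1, 2, 3 or 4, IRKO insulin 1 or 2 or IRKO IGF-1 1, 2, 3 or 4 (adjusted p = 0.051 to 0.235), and with either other edgeR scaling and DESeq2 (adjusted p = 0.0524, 0.0593 and 0.0765).

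The scarcer fibril binders fell in single comparisons. Col9a3 stood at 5.28, 4.48, 4.62 and 4.34 CPM under vehicle, 3.69, 4.75, 4.14 and 2.47 with insulin and 3.6, 3.23, 3.37 and 3.84 with IGF-1 in the floxed libraries. In IRKO libraries Col9a3 stood at 6.3, 5.87, 5.12 and 5.26 CPM, 4.46, 5.08, 5.23 and 4.68 and 4.3, 5.05, 4.6 and 5.74 in the same order. Col9a3, a chain of the type IX collagen that coats cartilage fibrils, fell with IGF-1 in floxed cells at a log2 difference of -0.42 (SE 0.156, adjusted p = 0.023), a call lost without floxed vehicle 1 or floxed IGF-1 2 (adjusted p = 0.0617 to 0.0721). Reads of Col9a3 and of Tcfl5 cannot be told apart over 6.1% of the Col9a3 exon length, where the genes overlap on opposite strands. Col9a2 stood at 1.21, 0.896, 1.06 and 1.31 CPM under vehicle, 0.727, 0.781, 0.309 and 0.449 with insulin and 0.61, 0.624, 0.618 and 0.9 with IGF-1 in the floxed libraries. In IRKO libraries Col9a2 stood at 1.04, 1.3, 1.07 and 0.498 CPM, 1.02, 0.992, 0.595 and 1.1 and 0.861, 0.499, 0.968 and 0.863 in the same order. Col9a2 fell with insulin in floxed cells at a log2 difference of -0.98 (SE 0.349, adjusted p = 0.0171), which rests on at most 1.31 CPM and was lost without floxed insulin 3 or 4 (adjusted p = 0.055 to 0.0729). Col20a1 stood at 5.28, 6.91, 3.77 and 5.94 CPM under vehicle, 3.57, 5.05, 3.28 and 4.1 with insulin and 4.69, 4.08, 4.21 and 4.26 with IGF-1 in the floxed libraries. In IRKO libraries Col20a1 stood at 4.27, 4.05, 4.21 and 3.15 CPM, 3.06, 3.91, 4.34 and 4.51 and 3.62, 3.49, 5.02 and 4.5 in the same order. Col20a1 fell with insulin in floxed cells at a log2 difference of -0.44 (SE 0.169, adjusted p = 0.0293), lost without floxed vehicle 2 or 4 or floxed insulin 1 or 3 (adjusted p = 0.0647 to 0.141). Col14a1, at 1.02 to 4.55 CPM over all libraries, did not pass with either ligand.

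Of the short chain and membrane types, Col8a1 stood out by its level. Col8a1 stood at 128, 128, 126 and 126 CPM under vehicle, 137, 143, 143 and 137 with insulin and 169, 161, 162 and 166 with IGF-1 in the floxed libraries. In IRKO libraries Col8a1 stood at 93.5, 98.8, 103 and 112 CPM, 125, 112, 109 and 120.5 and 129, 140.0, 132 and 136 in the same order. Col8a1 (chromosome 16, 57624258 to 57754737, minus strand) rose by 0.14 (SE 0.044, adjusted p = 0.00754) with insulin and 0.38 (SE 0.044, adjusted p = 1.4e-09) with IGF-1 in floxed cells, and by 0.20 (SE 0.045, adjusted p = 0.00033) and 0.40 (SE 0.045, adjusted p = 5.7e-10) in IRKO cells. The IGF-1 libraries lay above all insulin libraries of their genotype. Col23a1 stood at 25.6, 22.3, 26.9 and 26.5 CPM under vehicle, 29.1, 26.1, 26.7 and 31.3 with insulin and 26.4, 30.4, 26.7 and 27.7 with IGF-1 in the floxed libraries. In IRKO libraries Col23a1 stood at 21.1, 20.5, 22.3 and 21.98 CPM, 22.8, 25.3, 21.5 and 24.6 and 24.4, 30.0, 25.8 and 23.3 in the same order. Col23a1, which spans the cell membrane, rose with IGF-1 in IRKO cells, by 0.27 (SE 0.077, adjusted p = 0.00326), a call lost without IRKO IGF-1 2 (adjusted p = 0.056). Col8a2 at 1.48 to 4.1 CPM, Col17a1, the collagen of hemidesmosomes, at 0.248 to 1.7, Col7a1, the anchoring fibril of skin, at 1.15 to 3.08 and Col26a1 at 0.822 to 2.91 CPM over all libraries did not pass with either ligand.

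Type VI genes, whose chains form beaded filaments around cells, differed among themselves. Col6a1 stood at 47.4, 44.1, 46.6 and 48.2 CPM under vehicle, 48.7, 46.2, 45.5 and 49.9 with insulin and 47.2, 46.97, 45.97 and 45.6 with IGF-1 in the floxed libraries. In IRKO libraries Col6a1 stood at 55.2, 64.2, 63.7 and 58.7 CPM, 65.9, 66.3, 60.1 and 60.1 and 63.6, 59.3, 59.5 and 61.9 in the same order. Col6a1 (chromosome 10, 76708792 to 76726168, minus strand) did not respond to a degree that passed: its 4 log2 changes lay between -0.01 and 0.06. Col6a2 stood at 8.78, 8.32, 8.07 and 6.96 CPM under vehicle, 8.72, 11.6, 9.34 and 9.54 with insulin and 9.69, 9.3, 9.32 and 9.84 with IGF-1 in the floxed libraries. In IRKO libraries Col6a2 stood at 9.26, 11.02, 10.2 and 10.7 CPM, 13.2, 12.2, 11.6 and 11.4 and 12.3, 14.8, 12.3 and 9.8 in the same order. Col6a2, a partner chain, rose with insulin in floxed cells by 0.29 (SE 0.110, adjusted p = 0.0303) and with IGF-1 in IRKO cells by 0.25 (SE 0.103, adjusted p = 0.0379). The first call was lost without floxed vehicle 3 or 4 or floxed insulin 2 (adjusted p = 0.0512 to 0.194) and the second without IRKO vehicle 1, 3 or 4, IRKO insulin 3 or IRKO IGF-1 1, 2 or 3 (adjusted p = 0.0502 to 0.283), and DESeq2 gave adjusted p of 0.0515 and 0.0635. Col6a3 stood at 1.03, 1.34, 1.01 and 1.08 CPM under vehicle, 1.64, 1.62, 1.49 and 0.898 with insulin and 1.83, 0.908, 1.01 and 1.68 with IGF-1 in the floxed libraries. In IRKO libraries Col6a3 stood at 1.15, 0.676, 0.853 and 1.33 CPM, 1.4, 2.29, 1.84 and 1.33 and 2.58, 2.43, 1.21 and 1.29 in the same order. Col6a3 rose in IRKO cells, by 0.77 (SE 0.302, adjusted p = 0.032) with insulin and 0.91 (SE 0.300, adjusted p = 0.00908) with IGF-1, lost without IRKO vehicle 2 or 3 or IRKO insulin 2 or 3 (adjusted p = 0.0757 to 0.133) and without IRKO IGF-1 1 (adjusted p = 0.0653) respectively. Col6a4 stood at 1.09, 1.15, 1.06 and 1.03 CPM under vehicle, 0.787, 0.18, 0.99 and 0.505 with insulin and 0.305, 0.567, 0.618 and 0.12 with IGF-1 in the floxed libraries. In IRKO libraries Col6a4 stood at 0.603, 0.676, 1.07 and 0.72 CPM, 0.537, 0.434, 0.178 and 0.578 and 0.804, 0.499, 0.847 and 0.555 in the same order. Col6a4, at 2 to 20 counts per library, fell with IGF-1 in floxed cells at a log2 difference of -1.39 (SE 0.419, adjusted p = 0.00347). Col6a5, at 0.123 to 1.18 CPM, did not pass.

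Promoters of 2 members that rose and 2 that fell in all 4 ligand comparisons are printed so that the starts can be compared; Col5a1 and Col8a1 were picked after their values were seen, and Col4a6 and Col11a1 are the members that fell in all 4 and have a window. RefSeq windows (GRCm38.p6) were found for 26 of the 35 members. Printed are the 250 bases before each start, 5′ to 3′ on the gene's strand, with 4 motifs in capitals on either strand. The TATA box was searched as TATAAA. The GC box, bound by Sp1, was searched as GGGCGG. The CCAAT box was searched by the letters of its name. The core site of FOXO factors, which insulin signalling keeps out of the nucleus, was searched as TGTTTAC. The windows lie at chr2:27886175-27886424 (plus) for Col5a1, chr16:57754738-57754987 (minus) for Col8a1, chrX:141474077-141474326 (minus) for Col4a6 and chr3:114030290-114030539 (plus) for Col11a1.
Col5a1: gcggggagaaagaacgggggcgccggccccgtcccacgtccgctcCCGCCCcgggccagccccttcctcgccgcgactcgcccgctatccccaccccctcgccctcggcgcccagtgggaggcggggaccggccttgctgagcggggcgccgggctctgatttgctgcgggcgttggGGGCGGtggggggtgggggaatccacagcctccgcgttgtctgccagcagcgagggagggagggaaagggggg
Col8a1: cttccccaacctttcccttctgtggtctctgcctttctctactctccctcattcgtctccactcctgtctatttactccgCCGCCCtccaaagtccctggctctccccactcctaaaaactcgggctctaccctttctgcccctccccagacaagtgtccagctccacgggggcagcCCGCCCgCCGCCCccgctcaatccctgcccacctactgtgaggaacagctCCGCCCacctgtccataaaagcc
Col4a6: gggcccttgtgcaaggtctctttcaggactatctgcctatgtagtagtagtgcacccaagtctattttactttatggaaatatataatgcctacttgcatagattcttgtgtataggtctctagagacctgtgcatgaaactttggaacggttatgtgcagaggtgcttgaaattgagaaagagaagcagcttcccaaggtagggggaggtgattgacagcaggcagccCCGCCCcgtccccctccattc
Col11a1: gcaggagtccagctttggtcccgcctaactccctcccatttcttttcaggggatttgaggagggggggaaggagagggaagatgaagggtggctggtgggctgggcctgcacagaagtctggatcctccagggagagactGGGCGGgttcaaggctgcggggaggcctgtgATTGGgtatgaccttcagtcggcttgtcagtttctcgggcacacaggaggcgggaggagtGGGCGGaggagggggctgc
Every one of these 4 windows holds a GC box, with 2 in Col5a1, 4 in Col8a1, 1 in Col4a6 and 2 in Col11a1, and Col11a1 also a CCAAT box. Guanine and cytosine make up 76.4% of the Col5a1 window and 47.6% of the Col4a6 window. No TATA box or FOXO core letters were found in them. Over the 26 members with a window, 19 held a GC box, 11 a CCAAT box, 3 a TATA box (Col3a1, Col11a2 and Col17a1) and 1, Col6a1, the FOXO letters. Among all 32817 RefSeq windows, 32.7% held GGGCGG, 33.8% CCAAT, 12.4% TATAAA and 3.2% TGTTTAC on either strand. Of the members that rose in all 4 comparisons, 4 of 5 with a window held a GC box, and of those that fell in all 4, 2 of 2.

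Fewer collagen genes differed between IRKO and floxed control cells than between ligand and vehicle, and basement membrane and type V genes were among those lower in IRKO cells. Under vehicle, 3 members were higher and 7 lower in IRKO cells, 28.6% against 7.86% of all genes tested. With insulin 2 were higher and 5 lower (20% against 10.5%), and with IGF-1 4 were higher and 3 lower (20% against 6.76%). With library size in place of TMM scaling, the split with insulin was 3 higher and 4 lower. Under vehicle, all 10 calls were among the 18 members with at least 10 CPM, 55.6% of them against 10.3% of all genes at that level, and with insulin and IGF-1 these shares were 38.9% against 13.7% and 33.3% against 8.72%. The count under vehicle was 6 without floxed vehicle 4 or without IRKO vehicle 2, and the count with IGF-1 was 4 without floxed IGF-1 2 or 3 or IRKO IGF-1 3. The 3 comparisons share no libraries with each other, but each uses libraries of the ligand comparisons.

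Col6a1 and Col27a1 were higher in IRKO cells under all 3 treatments. All 12 IRKO libraries held more Col6a1 than any of the 12 floxed libraries, with log2 differences of 0.38 (SE 0.051, adjusted p = 2.2e-06), 0.41 (SE 0.051, adjusted p = 3.7e-07) and 0.40 (SE 0.052, adjusted p = 1.6e-06) under vehicle, insulin and IGF-1. Col27a1 stood at 11.2, 11.6, 8.12 and 9.93 CPM under vehicle, 12.7, 13.6, 12 and 9.71 with insulin and 12.4, 10.7, 9.15 and 10.7 with IGF-1 in the floxed libraries. In IRKO libraries Col27a1 stood at 14.2, 16.3, 10.8 and 14.1 CPM, 17.99, 17.6, 15.1 and 15.7 and 12.4, 12.9, 16.5 and 14.8 in the same order. Col27a1, a fibrillar collagen of cartilage, differed by 0.45 (SE 0.119, adjusted p = 0.0128), 0.47 (SE 0.116, adjusted p = 0.00524) and 0.40 (SE 0.120, adjusted p = 0.0326), and its libraries overlapped under vehicle and IGF-1. The vehicle call was lost without floxed vehicle 3 or IRKO vehicle 2 (adjusted p = 0.0775 to 0.0872) and the IGF-1 call without floxed IGF-1 2, 3 or 4 or IRKO IGF-1 3 or 4 (adjusted p = 0.0656 to 0.165). Col6a2 was higher by 0.36 (SE 0.108, adjusted p = 0.0294) under vehicle and 0.37 (SE 0.105, adjusted p = 0.0245) with IGF-1, lost without floxed vehicle 3 or 4 or IRKO vehicle 2, 3 or 4 (adjusted p = 0.0542 to 0.125) and without floxed IGF-1 2 or 3 or IRKO IGF-1 1, 2 or 3 (adjusted p = 0.0566 to 0.155) respectively. Col9a3 was higher with IGF-1, by 0.49 (SE 0.156, adjusted p = 0.0476), which was lost without floxed vehicle 2 or 4, floxed insulin 1, floxed IGF-1 1, 2, 3 or 4, IRKO vehicle 2, 3 or 4, IRKO insulin 1, 2, 3 or 4 or IRKO IGF-1 2, 3 or 4 (adjusted p = 0.0504 to 0.174) and with DESeq2 (adjusted p = 0.0517).

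Col5a2 and Col8a1 were lower in IRKO cells under all 3 treatments. Col8a1 differed by -0.32 (SE 0.045, adjusted p = 3.5e-06), -0.26 (SE 0.044, adjusted p = 6.1e-05) and -0.30 (SE 0.044, adjusted p = 1.2e-05) and Col5a2 by -0.14 (SE 0.035, adjusted p = 0.00704), -0.11 (SE 0.035, adjusted p = 0.0388) and -0.15 (SE 0.035, adjusted p = 0.00432), in each case with no overlap between genotypes. The Col5a2 call with insulin was lost without floxed insulin 1, 2 or 3 or IRKO insulin 1, 3 or 4 (adjusted p = 0.0532 to 0.12) and with library size scaling (adjusted p = 0.0688). Col4a6 was lower under vehicle at a log2 difference of -0.22 (SE 0.046, adjusted p = 0.00117), and with insulin at a log2 difference of -0.19. Col12a1 was lower with insulin at a log2 difference of -0.25, and with IGF-1 at a log2 difference of -0.16. Col5a1, Col4a1 and Col4a5 were lower under vehicle, with log2 differences of -0.18, -0.17 and -0.13. The Col4a1 call was lost without floxed vehicle 3 or 4 or IRKO vehicle 1 (adjusted p = 0.0595 to 0.0648), and that of Col4a5 without floxed vehicle 2 or 4 or IRKO vehicle 1 or 2 (adjusted p = 0.0521 to 0.0808) and in a fit of the compared groups only (adjusted p = 0.0622). Col23a1 was lower under vehicle at a log2 difference of -0.24 (SE 0.077, adjusted p = 0.0449), and with insulin at a log2 difference of -0.27 (SE 0.076, adjusted p = 0.016), lost without floxed vehicle 1, 3 or 4, floxed IGF-1 3, IRKO vehicle 1, 2, 3 or 4 or IRKO IGF-1 1 or 3 (adjusted p = 0.05 to 0.141) and without floxed insulin 4 or IRKO insulin 3 (adjusted p = 0.0549 to 0.1) respectively. The Col23a1 call under vehicle was also lost in 3 alternative fits that left out no single library.

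By class, 3 of 7 basement membrane genes (42.9%) were lower and none higher in IRKO cells under vehicle, with a median log2 difference of -0.11. With insulin, 1 of 7 (14.3%) was lower. With IGF-1, edgeR called 0 of the 7, as did DESeq2, and 2 had an unadjusted p under 0.05. Of all genes tested, 4.1%, 5.53% and 3.15% were lower under vehicle, insulin and IGF-1. Among genes with at least 10 CPM these shares were 5.25%, 7.32% and 3.92%. Of 10 fibrillar genes 2, 1 and 1 were lower and 1 each higher under vehicle, insulin and IGF-1. Of 18 other types 2, 3 and 2 were lower and 2, 1 and 3 higher. Of all genes tested, 3.76, 4.94 and 3.62% were higher. Fibrillar genes had medians of -0.01, -0.04 and 0.08 in this order, and other types of -0.08, 0.16 and 0.21, beside medians within 0.01 of 0 for all genes. A total of 8 members passed in neither the ligand nor the genotype comparisons: Col3a1, Col14a1, Col8a2, Col11a2, Col7a1, Col26a1, Col17a1 and Col6a5. All of these had a mean of 5.66 CPM or less, and the median standard error of the 17 members under 10 CPM was 0.22 on the log2 scale under vehicle against 0.05 for the 18 above, so that only larger differences could have passed among them. The share of all genes that passed in neither set of comparisons was not counted.

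Insulin and IGF-1 differed from each other in 2 members. In floxed cells 1 was higher and 1 lower with insulin than with IGF-1, 5.71% of members against 2.59% of all genes. Col8a1 was lower at a log2 difference of -0.23 (SE 0.043, adjusted p = 0.00077), and Col1a2 higher, by 0.17 (SE 0.049, adjusted p = 0.0388), the latter lost without floxed insulin 1, 2 or 3, floxed IGF-1 1, 3 or 4, IRKO insulin 1 or IRKO IGF-1 1, 3 or 4 (adjusted p = 0.0503 to 0.154). In IRKO cells Col8a1 was again lower at a log2 difference of -0.20 (SE 0.044, adjusted p = 0.00525), 2.86% of members against 2.67% of all genes. The insulin libraries of Col8a1 lay below all IGF-1 libraries in both genotypes.

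Whether the receptor knockout changed a response was tested as the difference between genotypes in each log2 change. By edgeR, 0 of 35 members differed in the insulin response and 0 in the IGF-1 response, as did 0% of all genes tested in either. At an unadjusted p under 0.05 there were 2 and 3 members, and 838 and 822 of all genes, and DESeq2 called 0 members in both. Standard errors limit what could be seen: the median member had a standard error of 0.17 for the difference in either response. For Col5a1 the IRKO minus floxed response was 0.14 with insulin and 0.12 with IGF-1, for Col4a1 0.06 and 0.17, and for Col12a1 -0.15 and -0.05. None of these passed, which does not show that the responses were alike.

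Chains that assemble into the same molecule were also compared as ratios. The ratio of Col5a1 to Col5a2 per kb was 0.433 ± 0.0116 (SD, n = 4) in floxed vehicle libraries, 0.646 ± 0.0313 with insulin and 0.678 ± 0.0422 with IGF-1, and in IRKO libraries 0.42 ± 0.0184, 0.677 ± 0.011 and 0.722 ± 0.0143. No treated library had a ratio as low as any vehicle library. Col4a1 to Col4a2 went from 3.7 ± 0.291 to 3.2 ± 0.191 and 3.07 ± 0.206 in floxed and from 3.35 ± 0.149 to 2.77 ± 0.078 and 2.82 ± 0.191 in IRKO libraries. Col4a5 to Col4a6 went from 1.48 ± 0.048 to 1.69 ± 0.0776 and 1.77 ± 0.0458 in floxed and from 1.58 ± 0.0698 to 1.82 ± 0.0646 and 1.83 ± 0.0789 in IRKO libraries. Col1a1 to Col1a2 stood at 0.701 ± 0.0533, 0.791 ± 0.0541 and 0.818 ± 0.0918 in floxed libraries, whose ranges overlapped, and at 0.695 ± 0.0864, 0.846 ± 0.00749 and 0.891 ± 0.0599 in IRKO libraries. Col6a1 exceeded Col6a2 by a ratio of 10.1 ± 1.27 and Col6a3 by 117 ± 45.1 over 24 libraries. These ratios are descriptions without a test, their absolute size depends on the gene lengths used, and mRNA ratios say nothing of how much protein is assembled.

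**Figure D4:**
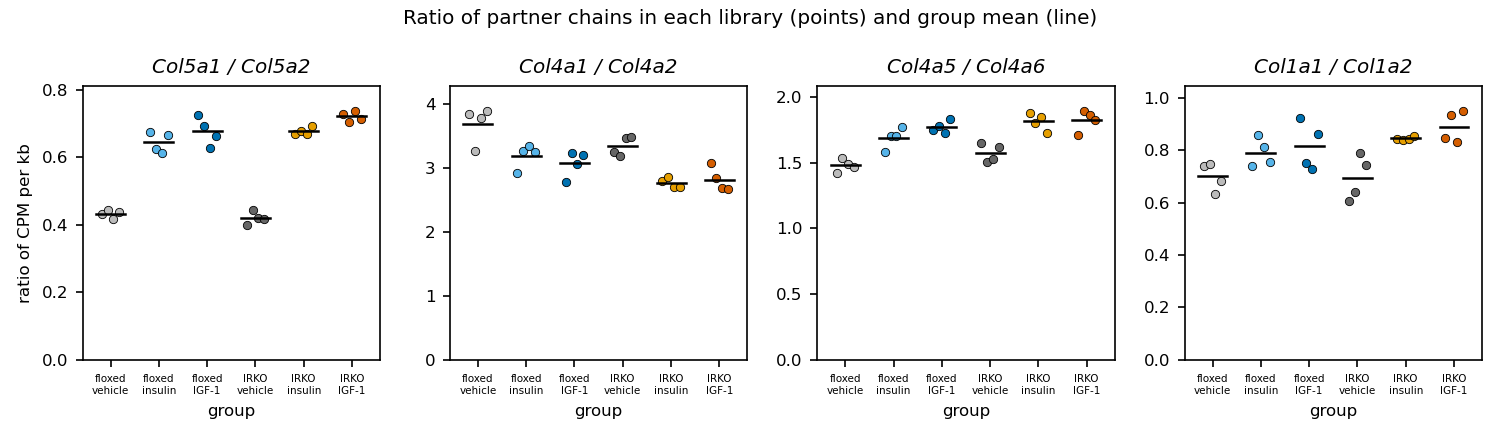
Ratio of the levels per kb of partner chains in each library (points) with the group mean (line), for type V, the Col4a1 and Col4a2 pair, the Col4a5 and Col4a6 pair, and type I. The type V ratio is at most 0.444 under vehicle and at least 0.613 in every treated library, while the Col4a1 to Col4a2 ratio has lower means with both ligands than with vehicle.

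Among genes that fold and modify collagen, 8 of 13 and 7 of 14 rose in all 4 ligand comparisons, beside 17.9% of all genes tested, and no test of the lists was made. The lists, like those below, were chosen with earlier results of these data known. The 8 folding and export genes were Serpinh1, Hspa5, Fkbp14, Sec24d, Creb3l1, Kdelr2, Pdia3 and Ppib, and none fell in all 4; a total of 8 rose in each comparison taken alone, and 1 fell with insulin in IRKO cells. In single comparisons 24.3 to 26.9% of all genes tested rose. Serpinh1, the collagen chaperone HSP47, rose by 0.74, 0.75, 0.78 and 0.82 on the log2 scale for insulin and IGF-1 in floxed and then IRKO cells. Hspa5, the chaperone BiP, rose by 0.75, 0.70, 0.76 and 0.78, and Sec24d, of the coat that carries procollagen out of the endoplasmic reticulum, by 0.51, 0.50, 0.56 and 0.59. The list median was 0.25 to 0.29, where the collagens' own lay between -0.123 and 0.0197. The 7 hydroxylase and glycosyltransferase genes were P4ha1, P4hb, P3h1, P3h2, Crtap, Plod3 and Colgalt2, the last rising by 1.14, 1.12, 1.22 and 0.90. Plod1, a lysyl hydroxylase, fell in all 4. Taken singly, 7, 8, 7 and 7 of the 14 rose and 1, 2, 1 and 2 fell, with medians of 0.144 to 0.198. P4hb, a subunit of the prolyl 4-hydroxylase that stabilises the helix, rose by 0.30 (SE 0.033, adjusted p = 6.5e-10) with insulin in floxed cells.

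Genes that act on secreted collagen were split. In all 4 ligand comparisons, 17.9% of all genes tested rose and 15.1% fell, and no test of these lists was made. Of 13 processing and cross-linking genes, Adamts14, which trims the amino end of procollagen, and Loxl1 rose in all 4 comparisons, and Lox, Loxl4, Pxdn and Tll1 fell. Adamts14 changed by 0.43, 0.58, 0.66 and 0.82, and Lox, which cross-links fibrils, by -0.22, -0.25, -0.34 and -0.34. Pxdn, the peroxidasin that cross-links type IV collagen, changed by -0.19 (SE 0.045, adjusted p = 0.00049) with insulin in floxed cells. Of 16 breakdown genes, the protease inhibitors Timp1 and Timp3 rose in all 4, Timp1 by 0.38 to 0.61, and the metalloproteinase Mmp11 fell in all 4 at a log2 difference of -0.64 with IGF-1 in IRKO cells.

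Partners in the matrix and receptors also went both ways, beside 17.9% of all genes tested that rose and 15.1% that fell in all 4 comparisons. Among 16 fibril partners, Tnc, Vcan, Fbn1 and Thbs2 rose in all 4 comparisons and Fmod fell. Vcan, a large proteoglycan of brain matrix, rose by 0.55 and 0.54 in the first and last of them. Of 15 basement membrane partners tested, Nid2, which links laminin to type IV collagen, rose in all 4, by 0.35, 0.29, 0.40 and 0.35, as did Lama3, while the laminin chains Lama5, Lamb2 and Lamc1 and the receptor Dag1 were among those that fell in all 4. Of 9 collagen receptors, Ddr2 and Adgrg1 rose and Ddr1, Itga1 and Itga2 fell in all 4. Itga2, of a collagen-binding integrin, fell with log2 changes of -0.90, -1.28, -0.81 and -1.24, and Ddr1 of -0.45, -0.61, -0.40 and -0.54.

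The TGF-beta pathway, known as a main inducer of collagen genes, showed no common direction. Of 18 genes, Ccn1, Smad2 and Tgfb3 rose in all 4 comparisons and Ccn2, Tgfb1, Tgfbr3, Smad4, Ski and Ltbp3 fell. These were 3 and 6 of the 18, beside 17.9% of all genes tested that rose and 15.1% that fell in all 4. Ccn2, a widely used target gene of the pathway, fell with log2 changes of -1.02 (SE 0.073, adjusted p = 3.1e-15), -1.27 (SE 0.075, adjusted p = 4.6e-18), -1.13 (SE 0.078, adjusted p = 9e-16) and -1.19 (SE 0.079, adjusted p = 1.7e-16). Smad4, the shared signal carrier, fell with log2 changes of -0.37 to -0.39.

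**Figure D5:**
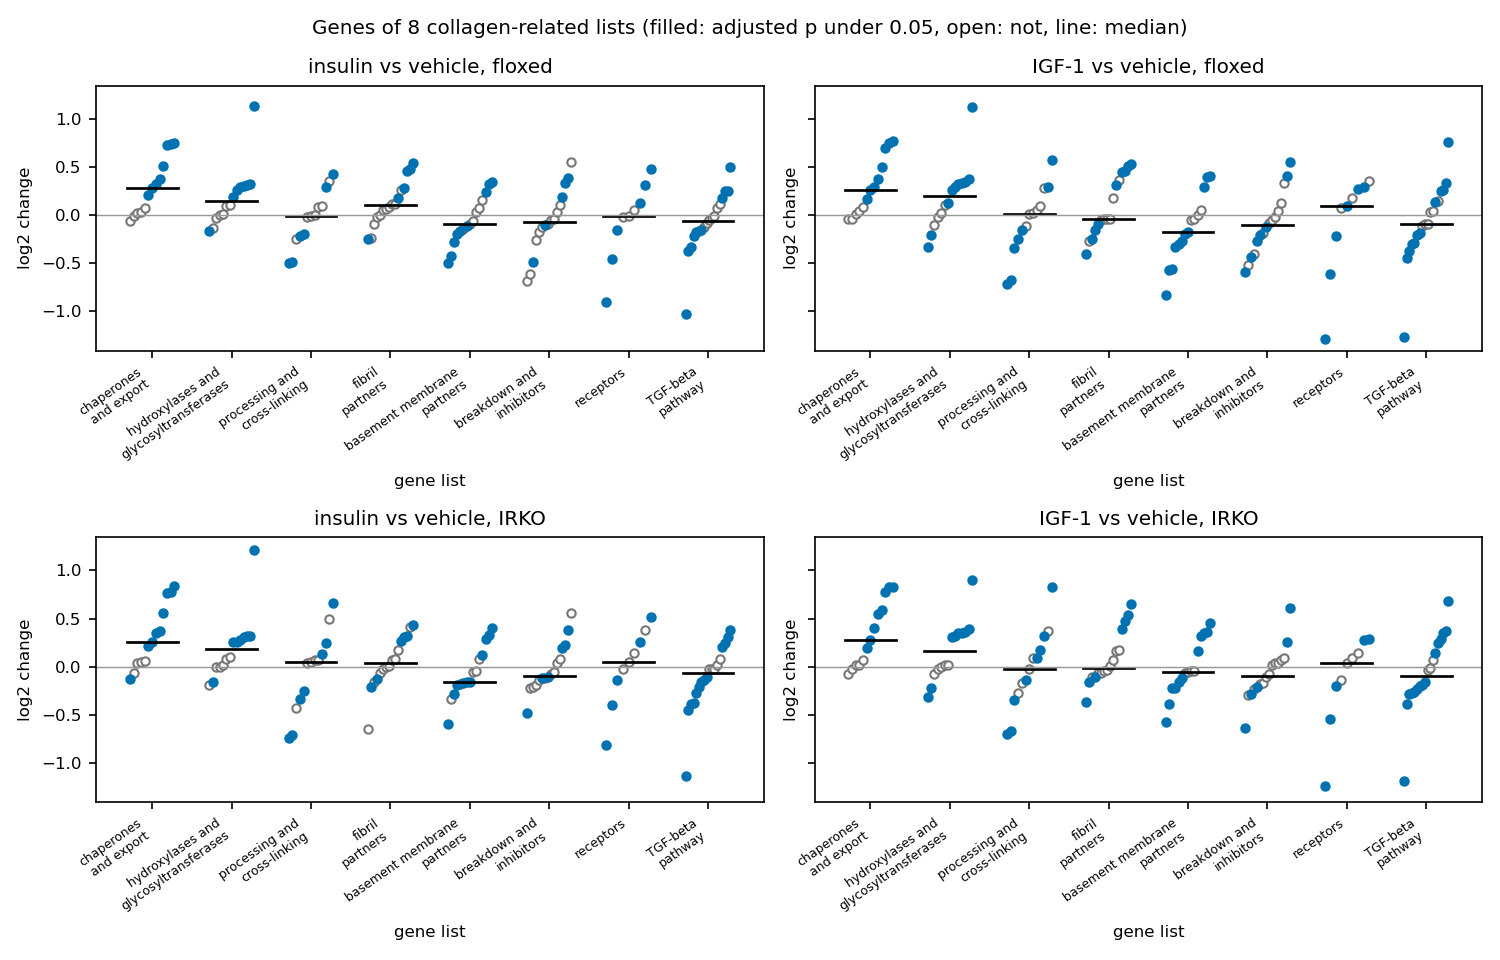
log2 change with each ligand against vehicle for the genes of 8 collagen-related lists (columns), 1 panel per ligand and genotype; filled points have an adjusted p under 0.05, open points do not, and the line is the list median. The medians of the chaperone list (0.253 to 0.287) and of the hydroxylase list (0.144 to 0.198) lie above 0 in all 4 panels, and every list has points on both sides of 0.

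In IRKO against floxed cells, fewer of the folding and modifying genes passed than with the ligands. Creb3l1, a factor that raises collagen and secretory genes, was lower, with log2 differences of -0.66 (SE 0.062, adjusted p = 1e-09), -0.62 (SE 0.061, adjusted p = 1.4e-09) and -0.40 (SE 0.060, adjusted p = 1.7e-05) under vehicle, insulin and IGF-1, and Serpinh1 with -0.26, -0.23 and -0.19. Those were the 2 of 13 folding genes that passed, under each treatment. Of all genes tested, 4.1, 5.53 and 3.15% were lower and 3.76, 4.94 and 3.62% higher. Of 14 hydroxylase and glycosyltransferase genes 1, 0 and 0 were lower and 1, 2 and 0 higher. Of 13 processing genes 0, 1 and 0 were lower and 2, 1 and 1 higher. Of 16 fibril partners 4, 5 and 2 were lower and 2, 1 and 1 higher. Of 15 basement membrane partners 1, 3 and 2 were lower and 0, 0 and 1 higher. Bmp1, which trims the carboxyl end of fibrillar procollagens, was higher by 0.21, 0.27 and 0.28. Nid2 was lower with log2 differences of -0.45, -0.39 and -0.39, and Vcan with -0.36, -0.48 and -0.28. Lum, a fibril-binding proteoglycan with group means of 0.73 to 3.52 CPM, was lower with log2 differences of -1.44, -2.15 and -1.73.

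Markers of other cells moved with the same comparisons, and their part in the collagen results was not tested. The 12 microglia markers summed to 1065 to 1126 CPM in floxed vehicle libraries, 915 to 991 with insulin and 963 to 999 with IGF-1, and to 1316 to 1336, 1118 to 1144 and 1091 to 1170 CPM in IRKO libraries. In the 4 ligand comparisons 8, 5, 10 and 9 of them fell and none rose. Of all genes tested, 21.4, 24.4, 21.7 and 25.1% fell and 24.3, 26.4, 24.7 and 26.9% rose there. In IRKO cells 10, 8 and 6 of the 12 were higher under vehicle, insulin and IGF-1. Of all genes tested, 3.76, 4.94 and 3.62% were higher and 4.1, 5.53 and 3.15% lower. No test of the marker lists was made. The 13 fibroblast and meningeal markers summed to 80.6 to 93.1 CPM in floxed vehicle libraries, 93.2 to 96.8 with insulin and 94.1 to 101 with IGF-1, and to 81.4 to 85.6, 88.3 to 89.9 and 90.6 to 99.9 CPM in IRKO libraries. Of the 10 tested, 3, 1, 1 and 2 rose with the ligands and 1 fell with insulin in floxed cells, and under vehicle, insulin and IGF-1 4, 3 and 2 were lower and 1 each higher in IRKO cells. Twist1, a mesenchymal factor, rose by 0.52, 0.69, 0.29 and 0.64, and Foxc1 fell with insulin in floxed cells at -0.22. Under vehicle, Tbx18 (-1.90), Lum (-1.44), Dcn (-1.05) and Foxc1 (-0.47) were lower in IRKO cells and Ptgds (0.33) was higher. Tbx18 was scarce, at group means of 0.242 to 0.932 CPM. Pdgfra alone held 39.2 to 47.6 CPM of the summed level as group means.

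The 10 astrocyte markers summed to 4503 to 4785 CPM in floxed vehicle libraries, 4470.0 to 4748 with insulin and 4131 to 4268 with IGF-1, and to 4728 to 4983, 4681 to 4829 and 4453 to 4493 CPM in IRKO libraries. With insulin and IGF-1 in floxed cells 4 and 2 of them rose and 3 and 6 fell, and in IRKO cells 4 and 2 rose and 4 and 5 fell. In IRKO against floxed cells 2, 1 and 3 were higher and 1 each lower under vehicle, insulin and IGF-1. Of all genes tested, 24.3 to 26.9% rose and 21.4 to 25.1% fell with a ligand. Between genotypes 3.62 to 4.94% of all genes were higher and 3.15 to 5.53% lower in IRKO cells. The 8 neuronal markers summed to 150.3 to 157 CPM in floxed vehicle libraries, 174 to 182 with insulin and 166 to 181 with IGF-1, and to 129 to 143, 141 to 150.2 and 143 to 155 CPM in IRKO libraries. Of the 4 neuronal markers tested, Stmn2 rose with log2 changes of 0.36, 0.47, 0.31 and 0.43, and 0, 1, 1 and 2 fell in the same comparisons. Map2 and Stmn2 were lower in IRKO cells under each treatment, Map2 with log2 differences of -0.25, -0.46 and -0.31 and Stmn2 of -0.16, -0.21 and -0.20. Snap25, a marker of mature neurons, stayed at or under 0.206 CPM as a group mean.

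The 8 oligodendrocyte lineage markers summed to 247 to 269 CPM in floxed vehicle libraries, 312 to 355 with insulin and 362 to 388 with IGF-1, and to 266 to 284, 367 to 375 and 394 to 418 CPM in IRKO libraries. Of 6 tested, 2 rose in each ligand comparison and 1, 2, 2 and 2 fell, where 24.3 to 26.9% of all genes rose and 21.4 to 25.1% fell. In IRKO cells 1 was higher under each treatment, Cnp under vehicle and Olig1 with insulin and with IGF-1. Of all genes tested, 3.62 to 4.94% were higher and 3.15 to 5.53% lower in IRKO cells. Olig1 and Olig2 rose by 0.75 and 0.84 with IGF-1 in floxed cells, where Mbp and Cnp fell with log2 changes of -0.56 and -0.23. Mural markers summed to 234 to 292 CPM over all floxed libraries and 246 to 279 over IRKO libraries. As group means, Rgs5 stood under 2.6 and Kcnj8 under 0.2 CPM. Acta2 stood at 117 to 136, Tagln at 56.45 to 63.6, Pdgfrb at 45.5 to 56.3 and Cspg4 at 16.5 to 24.5 CPM. Of the 6 mural markers tested, 1, 0, 1 and 0 rose and 1, 3, 1 and 1 fell in the 4 ligand comparisons. In IRKO cells 0, 0 and 2 were higher and 0 lower under vehicle, insulin and IGF-1. Endothelial markers summed to 6.25 to 11.6 CPM in all libraries, and of 4 tested 1 fell with IGF-1 in floxed cells and 1 was lower in IRKO cells with insulin.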

How the data were processed

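Poly-A RNA of cultured mouse astrocytes was sequenced as non-stranded 150 bp pairs, per the labels' protocols. The authors deposited whole-number read counts per gene for 24 libraries in 6 groups; which program and annotation made them is not stated in the labels. The submitters' processing notes name STAR 2.7.7a, R 4.0.4, edgeR, DESeq2 and mm10 without their roles. Lines that name no gene held 14.5 to 23.2% of reads and were left out.

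Counts were tested here with edgeR 4.0.16 (R 4.3.3): TMM scaling, filterByExpr (minimum count 10, minimum total 15), 1 mean per group over all 24 libraries, quasi-likelihood tests of 11 contrasts and Benjamini-Hochberg adjustment over 15599 genes. The biological coefficient of variation was 4.92%. CPM used TMM sizes, and levels per kb used GENCODE M21 exons (GRCm38). Scripts were tested on simulated data. Alternatives were other scalings, filters, a replicate block, the compared groups only, DESeq2 1.42.0 and leaving out each library; levels per kb of the longest coding transcript were added after seeing the data. Values in every library are given for Col1a1, Col1a2, Col3a1, Col4a1, Col4a2, Col18a1 and Col6a1 and for up to 3 called members with the largest log2 change in each direction and comparison. Of each pathway list, up to 4 called genes with the lowest p in a comparison were to be named; those called in all 4 ligand comparisons are named in addition, after their values were seen. One gene of these lists is not reported here. The members and lists were chosen with earlier results of these data known.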

Additional observations from a re-analysis of the deposited data

Results flagged for a closer look

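In groups of 4 libraries, a library was singled out where its gap to the nearest other exceeded Dixon's 95% critical value. Of 162 combinations of gene and group examined, 3 were singled out, where chance flags about 1 in 20. Col9a2 stood at 0.9 CPM in floxed IGF-1 replicate 4, above the others at 0.609 to 0.624 CPM. Col4a6 stood at 153 CPM in IRKO vehicle replicate 1, below the others at 170 to 172 CPM. Col4a6 also stood at 153 CPM in IRKO IGF-1 replicate 1, above the others at 141 to 143 CPM.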

How the results depend on the processing

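All 11 counts of called members stayed within 1.5 times the reported value under other scalings, filters, DESeq2 and fits of the compared groups only. Leaving out 1 library gave 6 to 10 members for IRKO against floxed cells under vehicle, 4 to 7 with IGF-1 and, for insulin against IGF-1 in floxed cells, 1 to 2. Of 88 calls of single members, 57 held in every alternative run that tested them, 31 were lost in at least 1 and 0 changed sign. Col6a4 and Col9a2, at means of 0.663 and 0.846 CPM, were not tested in the run of genes with at least 1 CPM. Libraries with the same replicate number did not deviate together (correlations of -0.115 to 0.0611 over 60 pairs, against -0.104 to 0.143 over 180 other pairs), so the numbers pair nothing by this measure. With the replicate number as a block, the counts were 14, 16, 15 and 18 for the ligand comparisons, 9, 9 and 6 for the genotype comparisons, 2 and 1 for insulin against IGF-1, and 0 for both differences between genotypes. With type IV genes alone, without Col18a1, the median log2 change of the basement membrane class moved from -0.0369 to -0.132 with insulin in floxed cells and from 0.0619 to -0.00149 between genotypes with insulin. Some calls were also lost under other settings than leaving out a library. In IRKO cells these were Col16a1 with insulin and Col6a2 with IGF-1 (4 settings each), Col2a1 with IGF-1 (2) and Col1a1 with insulin (1). In floxed cells these were Col2a1 with IGF-1 (3), Col6a2 with insulin (2) and Col4a1 with IGF-1 (1). Between genotypes these were Col23a1 under vehicle, Col5a2 with insulin, Col9a3 with IGF-1 (3 each) and Col4a5 under vehicle (1). Low counts limit the 17 members under 10 CPM.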
